A study of Arabidopsis thaliana with 20 samples.

Results

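A seedling line carrying 35S:VND7-VP16-GR was set against a seedling line carrying the empty vector, both treated with cycloheximide (CHX) and neither given dexamethasone (DEX). The 10 arrays of this comparison, 5 per line, were taken by their sample titles from the 20 arrays of the series and paired by the replicate number in the titles. The plants were whole Arabidopsis thaliana seedlings, 10 days old. The VND7 line is labelled 35S:VND-VP16-GR:NOS and the empty-vector line 35S:VP16-GR:NOS, each homozygous with a single insertion, so that each construct is represented by 1 line and both lines carry the VP16 and GR parts under the 35S promoter. The seedlings without DEX were kept in CHX for 6 h, and those with DEX had CHX for 2 h and then CHX with DEX for 4 h. The protocol gives 10 µM for both compounds and other label fields give 10 mM, so the concentration is not settled here. The series was designed to find genes that VND7 switches on directly, and the arrays without DEX give the state of each line before the fusion protein is called on.

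VND7 is a NAC transcription factor that switches on xylem vessel differentiation in Arabidopsis. Vessel cells lay down a patterned secondary wall of cellulose, xylan and lignin, then lose their contents and part of their end walls by programmed cell death, which takes enzymes that cut pectin and other polymers. VP16 is a viral activation domain. The GR part is the domain with which the glucocorticoid receptor binds its hormone, and it holds a fused protein outside the nucleus until DEX binds it. CHX blocks protein synthesis, so a gene that responds in its presence does not need a newly made protein. In plants, fusions of this kind are used as switches. A comparison of lines without DEX gives their state before the switch is used, together with any other difference between the lines.

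Levels are MAS5 signals recovered from the deposited log values, and differences between the lines are log2 differences, VND7 line minus empty-vector line, ± SE from limma, with Benjamini-Hochberg adjustment over all 22746 probe sets. A probe set was called at an adjusted p under 0.05. Medians of the 20 arrays lay between 159.7 and 186. No probe set in the naming table was paired with VND7 (AT1G71930), so the level of the transgene is not analysed here. A single gene was matched to 13484 probe sets (59.3%), and the others are called unnamed. The mesophyll genes RCA, the activase of Rubisco, and LHCB4.1, of the light-harvesting antenna, were high in both lines, with signals of 20012 ± 2039 and 15649 ± 1445 in the VND7 line, and 20589 ± 3996 and 16716 ± 2448 in the empty-vector line (SD, n = 5 each). The root hair genes EXPA18 and EXPA7 were also measured, EXPA18 at 64.6 ± 7.81 in the VND7 line and 56.7 ± 23.5 in the empty-vector line, and EXPA7 at 40.6 ± 12.1 in the VND7 line and 54.7 ± 8.23 in the empty-vector line (SD, n = 5 each), neither of them called. The fixed markers of xylem vessels had no named probe set. The labels do not state that replicates were grown separately, so the p-values rest on variation among these arrays that could be technical. In whole seedlings a change in the number of cells of a type cannot be told apart from a change in RNA per cell.

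The lines differed little without DEX. In all, 21 probe sets were called, 0.0923% of those tested, 18 of them higher in the VND7 line (0.0791%) and 3 lower (0.0132%). Of these, 12 differed at least 2-fold. A single gene was matched to 6 of them, 5 higher and 1 lower, and 15 were unnamed. All 21 moved one way in 5 of 5 replicate pairs, which 9.52% of all probe sets did. For 14 of the 21 the 5 arrays of one line did not overlap the 5 of the other, which held for 0.532% of all probe sets. Both counts come from the arrays that gave the calls, so they describe the calls and are no separate support for them. Without the replicate number as a block, 6 of the 21 stayed called. Across all probe sets the median difference was 0.01 and the median absolute difference 0.14. For 11338 of the 11367 probe sets brighter than the median (99.7%), the 95% interval of the difference lay within 2-fold in both directions. Over all probe sets that share was 72.7%.

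The largest difference belonged to an unnamed probe set, 260173_at. Its signal was 5664, 5101, 3873, 7343 and 7437 in the VND7 line (replicates 1 to 5), against 42.1, 17.6, 33.1, 27.7 and 29.7 in the empty-vector line. The lowest array of the VND7 line was far above every array of the empty-vector line, whose values lay below the 30th percentile of every array (46.2 to 58.7). The log2 difference was 7.65 ± 0.21 (limma, adjusted p = 5.52e-15). Because the empty-vector signals are that dim, its size is uncertain, and it was 6.15 with a pseudocount of the 30th percentile. With DEX, on the other 10 arrays, the same probe set differed by 7.53 ± 0.21, with means of 5659 ± 1186 in the VND7 line and 32.4 ± 13.2 in the empty-vector line (SD, n = 5 each). DEX itself moved it by -0.06 in the VND7 line (adjusted p = 0.98) and by 0.05 in the empty-vector line (adjusted p = 0.967).

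2 of the 5 named genes higher in the VND7 line belong to the polygalacturonases, the enzymes that cut the pectin backbone of the cell wall. AT1G70500 had signals of 501, 849, 857, 476 and 475 in the VND7 line without DEX, against 105, 180, 129, 165 and 111 in the empty-vector line. The 2 lines did not overlap, and replicates 2 and 3 of the VND7 line were the highest. The difference was 2.19 ± 0.21 (4.56-fold, adjusted p = 1.04e-05; 0.000208 without the block). AT1G23460 had signals of 363, 361, 323, 375 and 348 in the VND7 line, against 172, 144, 119, 211 and 186 in the empty-vector line. It too separated the lines on every array, with a difference of 1.13 ± 0.16 (2.19-fold, adjusted p = 0.00273; 0.0344 without the block). Its probe set carries the suffix that Affymetrix gives to probes shared by related transcripts, so the gene that gave the signal is uncertain.

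AT2G04850, which codes for a membrane protein of the auxin-responsive cytochrome b561 and DOMON family, was as high as the first of these polygalacturonases in relative terms. Its signals were 479, 455, 423, 443 and 451 in the VND7 line, against 151, 66.0, 94.6, 87.0 and 122 in the empty-vector line. The VND7 arrays lay close together while the empty-vector arrays spread more than 2-fold. The difference was 2.19 ± 0.17 (4.55-fold, adjusted p = 3.88e-07).

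The remaining named genes differed by less. AT2G37750 had signals of 1401, 984, 1556, 1289 and 1067 in the VND7 line, against 475, 604, 614, 885 and 794 in the empty-vector line. It was the brightest of the 6 named genes in both lines, and its difference was 0.93 ± 0.15 (1.91-fold, adjusted p = 0.00633; 0.0937 without the block). AT5G61340 had signals of 297, 218, 258, 375 and 303 in the VND7 line, against 177, 148, 183, 188 and 193 in the empty-vector line. The lines did not overlap, and the difference was 0.71 ± 0.12 (1.63-fold, adjusted p = 0.0193; 0.218 without the block). AT1G04800, which codes for a glycine-rich protein, was the only named gene lower in the VND7 line, with signals of 219, 384, 332, 259 and 289 there, against 574, 466, 511, 452 and 428 in the empty-vector line. Its difference was -0.71 ± 0.13 (1.64-fold lower, adjusted p = 0.0419; 0.953 without the block), and it lost its call in 20 of 25 alternative settings.

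**Figure D1:**
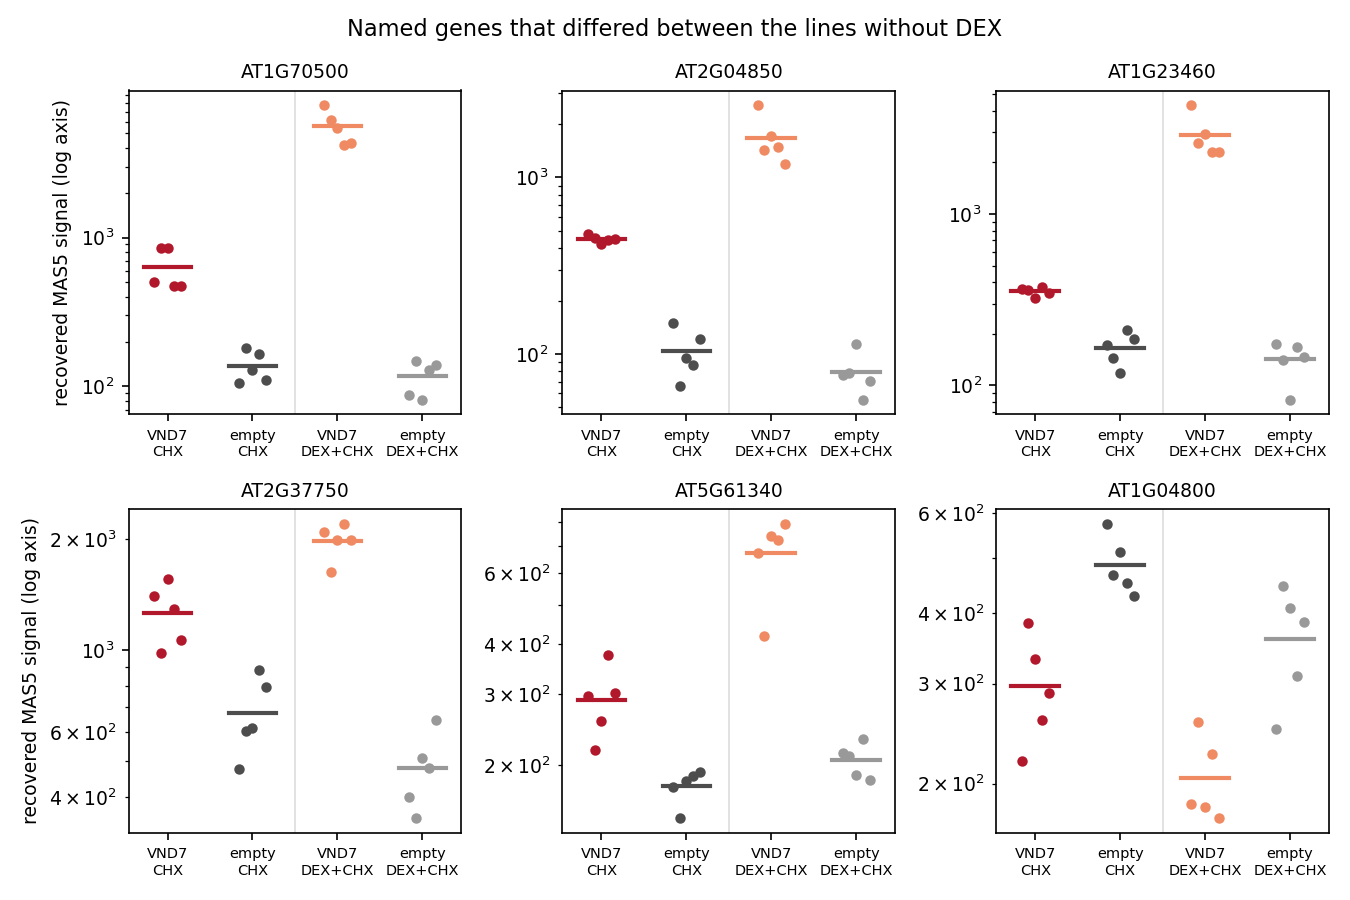
Recovered MAS5 signal on a log axis for the 6 named genes called without DEX, in the VND7 line (red) and the empty-vector line (dark grey) with CHX alone, then in both lines with DEX and CHX (orange and light grey). Points are arrays and bars the mean of 5; AT1G70500 averaged 632 in the VND7 line and 138 in the empty-vector line without DEX, while AT1G04800 averaged 297 and 486 in those lines.

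The unnamed probe sets added 13 higher and 2 lower in the VND7 line. After 260173_at, the one with the smallest adjusted p was 253191_at, with signals of 2122, 1309, 1591, 1278 and 1090 in the VND7 line, against 238, 167, 245, 275 and 272 in the empty-vector line. It differed by 2.63 ± 0.18 (6.18-fold, adjusted p = 1.18e-07) with no overlap. The calls of the 2 lower ones rested on the replicate block. The fit with the block chose them, so their replicate pairs are no separate support for pairing. The signals of 262260_at were 445, 84.6, 96.1, 209 and 172 in the VND7 line, against 786, 191, 191, 353 and 420 in the empty-vector line. Both lines were high in replicate 1 and low in replicates 2 and 3, so the ranges overlapped, yet within each pair the VND7 array was the lower one. Its difference was -0.99 ± 0.13 with the block (adjusted p = 0.000879), and 254828_at, of the same kind, differed by -0.67 ± 0.11 (adjusted p = 0.0111). Both had an adjusted p of 1 without the block. The clock gene GI, whose transcript is known to swing with the time of day, also varied between replicate numbers, in another order. Its signals were 890, 238, 271, 2430 and 2533 in the VND7 line, against 645, 194, 258, 2492 and 2957 in the empty-vector line. Replicates 2 and 3 were low and replicates 4 and 5 high in both lines, and no difference between the lines was called.

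The difference between the lines with DEX was measured on 10 other arrays. There 737 probe sets were called, 3.24% of those tested, 437 higher in the VND7 line (1.92%) and 300 lower (1.32%). Of the 21 called without DEX, 20 were called in the same direction with DEX, 17 of the 18 higher and 3 of the 3 lower. The exception was an unnamed probe set, chosen here after its values were seen, that differed by 0.44 without DEX and 0.16 with it. For AT1G70500 the difference was 2.19 without DEX and 5.57 ± 0.21 with it, for AT2G04850 2.19 and 4.39 ± 0.17, and for AT1G23460 1.13 and 4.34 ± 0.16. AT2G37750 differed by 0.93 without DEX and 2.07 ± 0.15 with it, and AT5G61340 by 0.71 and 1.67 ± 0.12. For AT1G04800 the values were alike, -0.71 without DEX and -0.80 ± 0.13 with it. The spread estimate of the fit is shared by both sets of arrays. Both sets also come from the same 2 lines and the same replicate numbers. Same-numbered arrays of different groups deviated together (r = 0.558 to 0.835). The arrays with DEX are thus not independent material, and agreement between the sets does not extend to other lines.

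**Figure D2:**
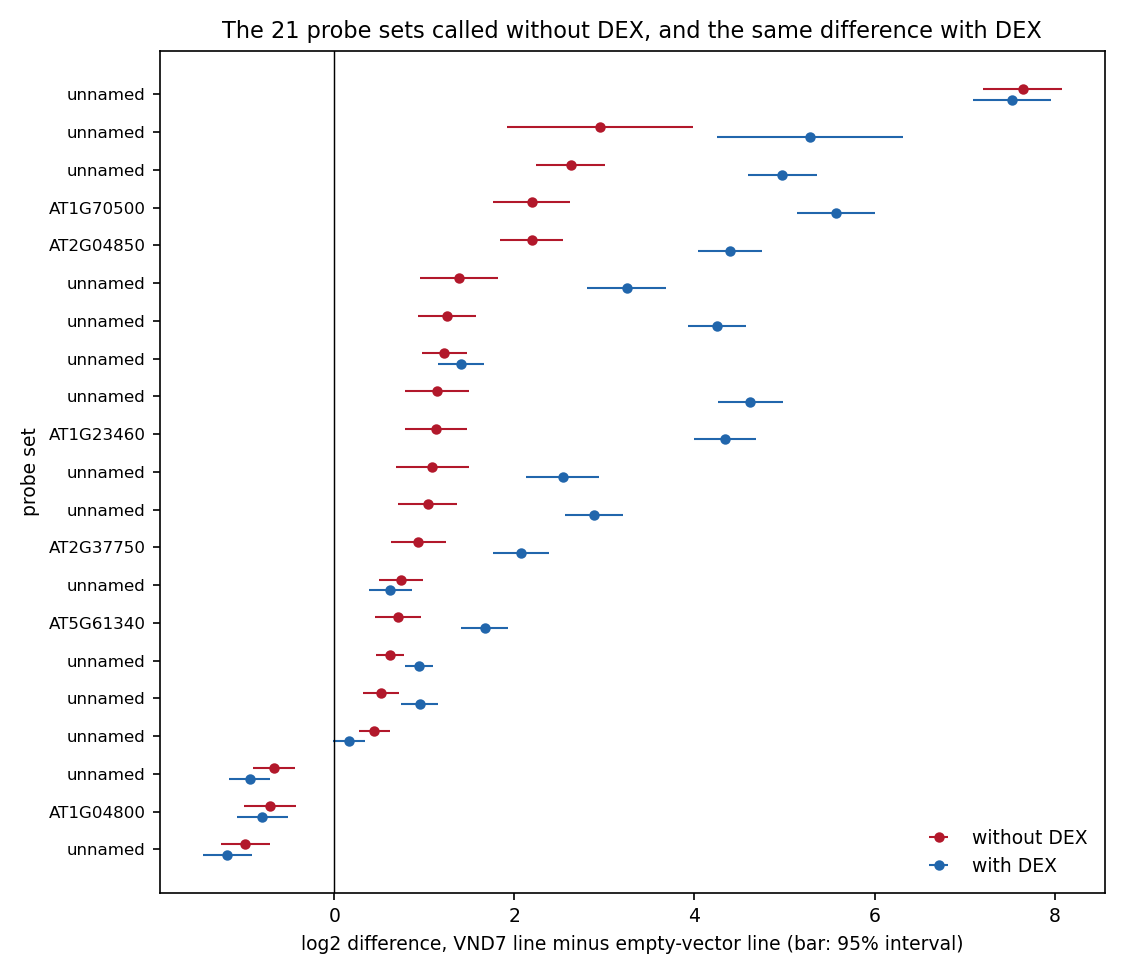
Log2 difference between the lines, VND7 line minus empty-vector line, for the 21 probe sets called without DEX (red) and the same probe sets with DEX (blue); bars are 95% intervals from limma. The uppermost probe set stands at 7.65 without DEX and 7.53 with it, whereas AT1G70500 stands at 2.19 without DEX and 5.57 with it.

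By the adjusted p threshold, the 21 probe sets divided into those called for a further rise with DEX and those not called. In the VND7 line, 13 of them were called as rising with DEX and 0 as falling. Among all probe sets 1.04% were called there, 0.928% rising and 0.11% falling. In the empty-vector line 0 of the 21 were called in either direction, beside 0.712% of all probe sets, 0.659% rising and 0.0528% falling. A difference in response between the 2 lines was called upwards for 11 of the 21 and downwards for 0, beside 1.05% called, 0.532% upwards and 0.519% downwards, among all probe sets. These responses share the arrays without DEX with the line difference, so they are given as values beside it. AT1G70500 rose by 3.14 ± 0.21 with DEX in the VND7 line, to signals of 7742, 6188, 5475, 4160 and 4343, and its response in the empty-vector line was -0.24 (adjusted p = 0.82). AT1G23460 rose by 2.96 ± 0.16 in the VND7 line, AT2G04850 by 1.83 ± 0.17, AT5G61340 by 1.17 ± 0.12 and AT2G37750 by 0.64 ± 0.15. The 13 held 5 named genes, which are all the named genes that were higher in the VND7 line. The other 8, 5 higher and 3 lower in the VND7 line, were not called for a response to DEX in the VND7 line. The division is one of threshold, since 267496_at, called, rose by 0.34 and 257978_at, not called, by 0.30. AT1G04800 was the named gene among the 8. With DEX it moved by -0.55 ± 0.13 in the VND7 line (limma, adjusted p = 0.0576) and by -0.46 ± 0.13 in the empty-vector line (adjusted p = 0.194).

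Genes chosen for the line difference with DEX were then read on the arrays without DEX. Among the 437 probe sets higher in the VND7 line with DEX, 374 (85.6%) had a positive difference without DEX, against 53.2% of all probe sets. Their median difference without DEX was 0.20 (quartiles 0.07 and 0.37), and the medians in pairs 1 to 5 were 0.25, 0.20, 0.24, 0.17 and 0.18. Every pair thus showed the shift, while the pair medians over all probe sets lay between -0.03 and 0.04. Arrays numbered 2 with 3 and 4 with 5 also deviated together (r = 0.514 to 0.779), so the 5 pairs may not be 5 separate sets of plants. At an unadjusted p under 0.05 (limma), 144 of the 437 were higher and 0 lower without DEX, beside 840 higher and 796 lower among all 22746. Both line differences share the spread estimate of each probe set, so the choice favours probe sets with a low estimate. All probe sets are therefore not a like background for counts by p-value, here and in the sets chosen with DEX below. The shift was graded by the difference with DEX. The 78 probe sets at least 4-fold higher with DEX had a median of 0.59 without it, the 109 that were 2 to 4-fold higher had 0.27, and the 250 below 2-fold had 0.15.

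The genes lower in the VND7 line with DEX had no shift in their median, which was 0.00 without DEX (quartiles -0.15 and 0.11). Of the 300, 50.3% had a positive difference, and the pair medians ran from -0.07 to 0.02. Among them, 3 were called lower without DEX, beside 0.0132% of all probe sets, and 0 higher. These 3 were all the lower calls without DEX. At an unadjusted p under 0.05 28 were lower and 12 higher. In the 22009 probe sets that were not called with DEX, the median was 0.01 and 1 probe set was called without DEX.

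**Figure D3:**
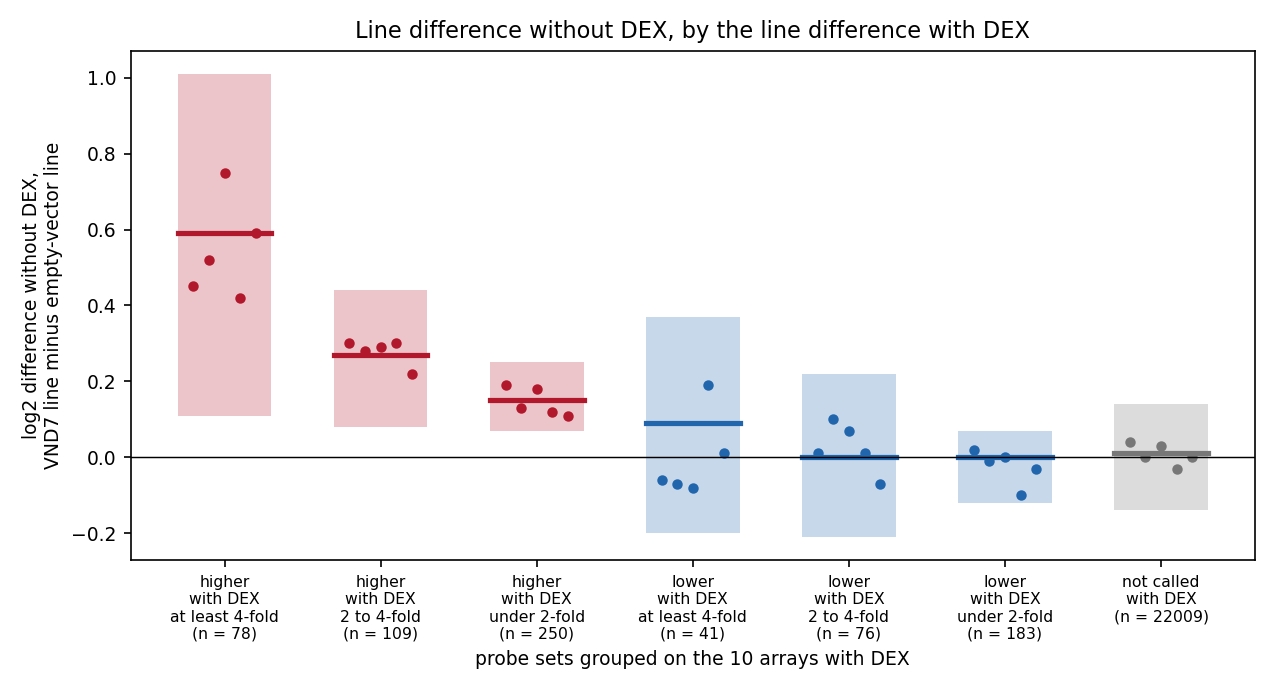
Log2 difference without DEX, VND7 line minus empty-vector line, for probe sets grouped by their line difference on the 10 arrays with DEX. Lines are medians, boxes the quartiles and points the medians of replicate pairs 1 to 5 from left to right; the medians fall with the fold of the group, 0.59, 0.27 and 0.15 in the 3 groups higher with DEX, and stand at 0.01 in probe sets not called with DEX.

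By name, 39 genes were at least 4-fold higher in the VND7 line with DEX. Without DEX, 32 of them had a positive difference and 7 a negative one, with a median of 0.39. On the 15 arrays other than those of the VND7 line with DEX, 25 of the 39 averaged a signal of at least 30, and 24 of these 25 were positive (median 0.49). The 14 dimmer ones had a median of 0.06, with 8 positive. The 15 arrays include those of the VND7 line without DEX, so a gene high there passed the floor more easily. The 24 of 25 and the contrast with the dimmer genes are therefore partly set by the floor. In 13 of the 39 the VND7 array was higher in 5 of 5 pairs, which was also true of 5.05% of all probe sets. In 8 of the 39 the lines did not overlap with the VND7 line higher, beside 0.299% of all probe sets. Of the 39, 4 were called higher (10.3%), beside 0.0791% of all probe sets: AT1G70500, AT2G04850, AT1G23460 and AT2G37750. The 95% interval lay above 0 for 13 and held 0 for 26, so for most of them a small difference could not be told from none.

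These genes ranged widely before DEX, and those described next, other than AT5G40020, were chosen after their values were seen. AT1G79620, which codes for a receptor kinase with leucine-rich repeats, missed the threshold with the largest difference of the 39, 2.54 ± 0.50 (adjusted p = 0.0691). Its signals were 105, 90.7, 57.4, 59.1 and 65.5 in the VND7 line, against 34.1, 5.9, 25.7, 6.7 and 9.8 in the empty-vector line, the lowest of which are close to the bottom of the signal range and make the ratio uncertain. AT5G02640 had signals of 40.5, 83.7, 84.3, 51.8 and 39.2 in the VND7 line, against 36.5, 33.3, 11.7, 11.5 and 23.0 in the empty-vector line, with no overlap and a difference of 1.47 ± 0.46 (adjusted p = 0.46). AT1G53660, with signals of 75.3, 71.7, 61.7, 100 and 58.5 in the VND7 line, against 43.1, 27.9, 33.6, 21.6 and 38.8 in the empty-vector line, likewise did not overlap (1.19 ± 0.40, adjusted p = 0.515). AT3G27200, of the copper-binding cupredoxins, had signals of 444, 256, 251, 254 and 229 in the VND7 line, against 242, 175, 266, 162 and 88.3 in the empty-vector line, a difference of 0.69 ± 0.15 (adjusted p = 0.136).

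At the other end stood genes with a large difference once DEX was present and little before it. AT5G60720 differed by 0.09 ± 0.18 without DEX (95% interval -0.29 to 0.47), against 2.62 ± 0.18 with it, and its signals without DEX averaged 62.8 ± 13.0 in the VND7 line and 59.7 ± 13.3 in the empty-vector line (SD, n = 5 each). AT5G26330, another cupredoxin, differed by 0.11 ± 0.23 without DEX and 2.34 ± 0.23 with it. AT5G40020, of the thaumatin family, had signals of 76.6, 73.5, 79.9, 70.6 and 108 in the VND7 line without DEX, against 35.9, 42.4, 63.0, 75.6 and 92.9 in the empty-vector line. In it the lines overlapped (0.49 ± 0.48, 95% interval -0.51 to 1.49), while with DEX it differed by 5.16 ± 0.48.

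The 8 named genes with the largest rise with DEX in the VND7 line also varied without DEX. That rise is measured from the VND7 arrays without DEX. A low value there favours the choice of a gene and also lowers its line difference. Small or negative differences among the 8 are therefore partly set by the choice. Besides both polygalacturonases and AT5G40020, they are AT3G47400, a pectin methylesterase, AT5G38610, of the invertase and pectin methylesterase inhibitor family, AT2G45040, a matrix metalloproteinase, AT4G18450, an AP2/ERF transcription factor, and AT1G24600. Without DEX, AT3G47400 had signals of 79.2, 41.8, 46.1, 61.0 and 78.5 in the VND7 line, against 36.9, 36.1, 42.9, 17.4 and 44.0 in the empty-vector line. It was higher in 5 of 5 pairs but not called (0.83 ± 0.27, adjusted p = 0.49). AT5G38610, with signals of 171, 200, 282, 193 and 207 in the VND7 line, against 121, 174, 202, 174 and 152 in the empty-vector line, was also higher in 5 of 5 pairs with a small difference (0.37 ± 0.17, 95% interval 0.02 to 0.72). AT2G45040 was dim, at 22.2 to 38.8 in the VND7 line and 7.0 to 43.8 in the empty-vector line, and its ranges overlapped (0.62 ± 0.52, adjusted p = 0.828). AT4G18450, at 27.3 to 30.8 in the VND7 line and 2.4 to 29.7 in the empty-vector line, was not called either (1.06 ± 0.45, adjusted p = 0.645). 1 empty-vector array carried much of that value, which was 0.51 without replicate 5 of the empty-vector line. These 2 and AT1G24600 averaged a signal under 30 outside the VND7 arrays with DEX, so they passed the floor of 30 only through those arrays. AT1G24600 averaged 29.5 ± 14.9 in the VND7 line and 33.1 ± 9.41 in the empty-vector line, a difference of -0.33 ± 0.46.

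Genes of the vessel programme were thinly covered, with 8 of 90 listed genes measured by a named probe set. None of the 8 was called without DEX, beside 0.0923% of all probe sets, and their median difference was 0.22, against 0.01 over all probe sets, with pair medians of 0.31, 0.20, 0.18, -0.02 and 0.11. With DEX the median was also 0.22. PRX72 (AT5G66390), a peroxidase of lignin formation, had signals of 539, 572, 546, 884 and 909 in the VND7 line, against 406, 413, 647, 516 and 581 in the empty-vector line. The VND7 array was higher in 4 of 5 pairs, and the difference was 0.43 ± 0.15 (adjusted p = 0.553) without DEX and 1.62 with it (adjusted p = 4.81e-07). C3H14 (AT1G66810), a zinc finger gene of secondary wall formation, was dim and higher in 5 of 5 pairs, with a mean of 66.0 ± 3.12 in the VND7 line and 49.6 ± 11.1 in the empty-vector line (SD, n = 5 each; 0.46 ± 0.28, adjusted p = 0.749). Other members, chosen after their values were seen, included the xylan genes IRX15, at a difference of 0.42 ± 0.62, GUT2, at 0.12, and IRX15-L, at -0.02. IRX15 was dim, at 26.2 ± 17.2 in the VND7 line and 24.8 ± 26.7 in the empty-vector line (SD, n = 5 each), so its difference is uncertain. HCT, of lignin precursor synthesis, stood at -0.07, PRX52 at 0.32 and KINESIN-13A at 0.03. None of these members was called. A list of 32 pectin enzymes had 4 measured members, with a median of -0.21 and 0 called. It does not hold AT1G70500 or AT1G23460, which carry no symbol or family name in the table used to build it.

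Growth itself was not measured. The lists of transcripts tied to it are short, and at the 0.0923% called among all probe sets a count of 0 in them is near the background. The expansins and xyloglucan endotransglucosylases, which loosen walls of elongating cells, had 28 measured members with a median of -0.01 (range -0.46 to 0.44) and 0 called, and for 22 the 95% interval lay within 2-fold. The highest of them was EXPB1, with a mean of 265 ± 64.8 in the VND7 line and 198 ± 50.4 in the empty-vector line (SD, n = 5 each), higher in 5 of 5 pairs (0.44 ± 0.13, adjusted p = 0.415). With DEX its difference was 0.50 (adjusted p = 0.0338). Tubulins, of which 7 were measured, had a median of -0.01 and all 7 intervals within 2-fold. Histones had 5 measured members with a median of 0.05, and kinases and checkpoint genes of cell division 7, with a median of -0.11, led downwards by BUB3.2 (-0.72 ± 0.31, adjusted p = 0.65).

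Photosynthesis transcripts differed little. All 8 nuclear members measured had a negative difference, between -0.28 and -0.07 with a median of -0.15, 0 were called and all 8 intervals lay within 2-fold. The pair medians were -0.27, 0.07, -0.22, -0.18 and -0.22, so pair 2 ran the other way. PSB27, of photosystem II assembly, had the largest of them, at 4972 ± 804 in the VND7 line and 6115 ± 1071 in the empty-vector line (SD, n = 5 each; -0.28 ± 0.12, adjusted p = 0.665). The plastid genome, with 69 measured genes, had a median of -0.03, 0 called and 68 intervals within 2-fold. Auxin response genes, 11 measured, had a median of 0.04, and early stress genes such as STZ, a zinc finger factor that was very bright in both lines (18695 ± 2129 in the VND7 line and 17561 ± 2161 in the empty-vector line, SD, n = 5 each), were not called either.

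Over all 43 lists, 387 genes were measured and 0 were called without DEX, a count near the background of 0.0923%. Most lists were matched by gene symbol or synonym, while the 6 named genes called without DEX appear only by locus code. The list of DOMON and cytochrome b561 genes, for example, does not hold AT2G04850. The count of 0 is therefore partly set by how the lists were built. Among the 19 lists with at least 5 measured genes, medians ran from -0.15 to 0.22. Members with the smallest p-values included IQD26, a calmodulin-binding IQ-domain protein, at 247 ± 40.6 in the VND7 line and 192 ± 38.7 in the empty-vector line (SD, n = 5 each), higher in 5 of 5 pairs (0.39 ± 0.10, adjusted p = 0.235). With DEX its difference was 0.94 (adjusted p = 1.62e-06). TBL32, of the family that adds acetyl groups to wall polymers, differed by 0.48 ± 0.13 without DEX (adjusted p = 0.323) and by 0.00 with it, on a probe set whose suffix marks probes shared by related transcripts.

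**Figure D4:**
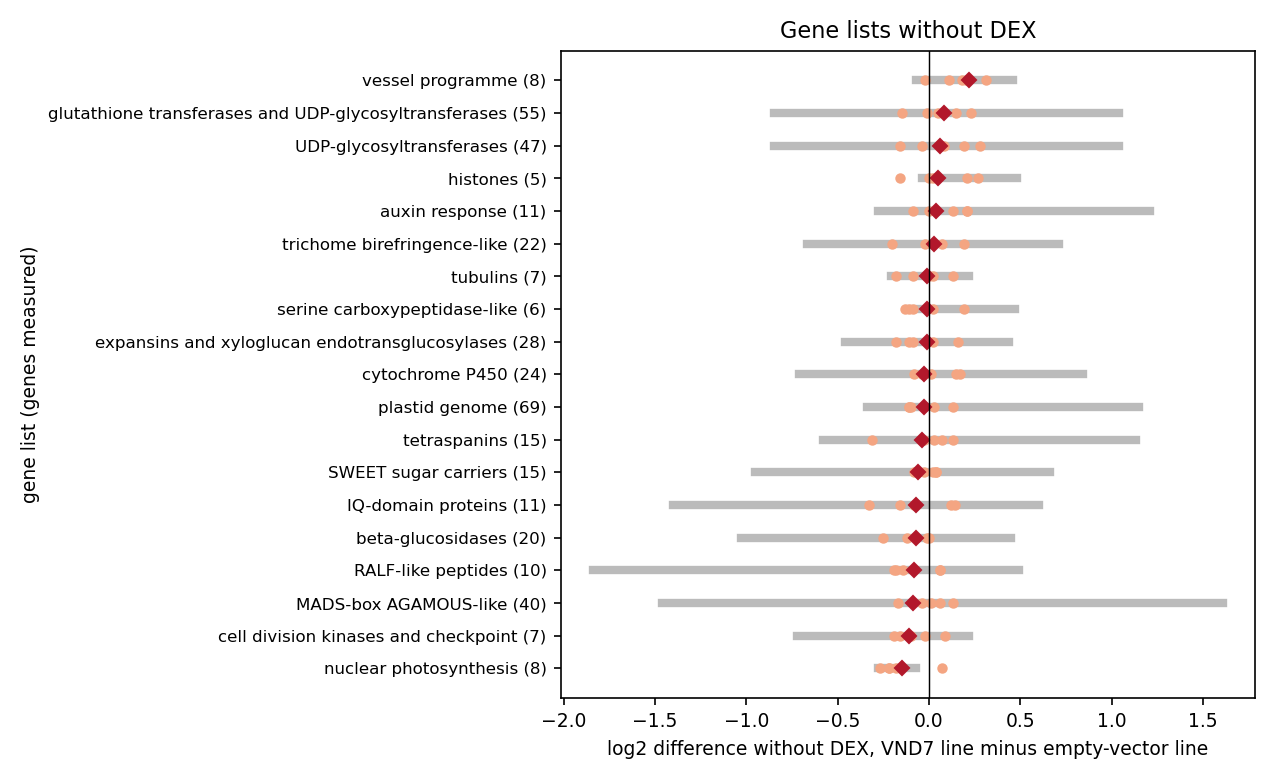
Log2 difference without DEX, VND7 line minus empty-vector line, for the 19 lists with at least 5 measured genes (number in brackets). Diamonds are list medians, pale points the medians of the 5 replicate pairs and grey bars the range of the members; medians run from -0.15 for nuclear photosynthesis to 0.22 for the vessel programme.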

How the data were processed

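The series table was deposited by the authors in natural log values, each array centred on its median. Signals came from MAS5, per the submitters' processing notes. The natural log scale was read from the values: exponentiated, 100% of the 13798 to 14330 values checked per array were whole multiples of 1 step (tolerance 0.02 of a step), taken as 0.1. All 22746 probe sets were tested as log2 values without a pseudocount; detection calls were not used here. limma 3.58.1 in R 4.3.3 (lmFit, eBayes with a variance trend) fitted 4 group means over 20 arrays with the replicate number as a block. Same-numbered arrays of different groups deviated together (r = 0.558 to 0.835 in 30 pairs, across 11373 probe sets), each above 0.1, the criterion for pairing. Numbers 2 with 3 and 4 with 5 did so nearly as much (r = 0.514 to 0.779 in 24 pairs) and other numbers did not (r = -0.697 to -0.0582), and 16 of 20 arrays correlated best with their own number. Names came from the supplied probe table and RefSeq (TAIR10.1). The brightest probe set stood for a gene in lists.

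Named genes were the called ones, the 8 largest called DEX rises in the VND7 line with a mean signal of at least 30, and up to 2 members of each list with the smallest adjusted p; others are marked as chosen after their values were seen. The comparison, the members and the 43 lists were chosen with earlier results of these data known, and 12 lists were added after the calls were seen. The plastid list was taken by RefSeq chromosome; 13 lists had no measured member. The planned promoter search was not run, since sequence is not used here. Alternatives were the block, samples, scaling, pseudocount, filter, trend, weights and arrays left out. The fit was tested on simulated data.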

Additional observations from a re-analysis of the deposited data

Results flagged for a closer look

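Among the 27 probe sets that were called without DEX or were among the 8 largest named rises with DEX, the response to DEX differed between the lines in 15 by limma's test of that difference (adjusted p under 0.05), beside 1.05% of all probe sets. The difference of the log2 responses, VND7 line minus empty-vector line, was 4.67 for AT5G40020, 3.56 for AT1G24600, 3.38 for AT1G70500, 3.20 for AT1G23460, 2.66 for AT5G38610, 2.33 for AT3G47400, 2.21 for AT2G04850, 1.14 for AT2G37750 and 0.96 for AT5G61340. For 6 unnamed probe sets it was 3.48, 3.00, 2.34, 1.86, 1.85 and 1.45. Outside these 27, AT5G60720 (2.53), AT5G26330 (2.23), AT3G27200 (1.96) and PRX72 (AT5G66390, 1.20) passed the same test. For AT5G40020 the empty-vector arrays with DEX were dim (5.3 to 63.1), and its response there was -1.34 (adjusted p = 0.387), so the size of its difference is uncertain; AT1G24600 is as dim in that line. These differences use the arrays without DEX that also gave the line difference. The 8 genes were also picked by their rise in the VND7 line, which is part of the difference tested. The count of 15 is therefore partly set by the choice, and 1.05% is not a like background for it. AT5G60720, AT5G26330 and AT3G27200 were chosen after their values were seen.

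Single arrays stood apart from the other 4 of their group in 3 of 54 groups examined without DEX, where chance gives about 1 in 20. The empty-vector line held the lowest value of AT3G47400 (17.4, replicate 4) and of AT4G18450 (2.4, replicate 5), and without that array the line difference was 0.62 for AT3G47400 and 0.51 for AT4G18450. The third was an unnamed probe set in replicate 1 of the VND7 line, with a signal of 431.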

How the results depend on the processing

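The count of calls without DEX, 21 in the fit reported, rests on the replicate block and on the number of arrays. With no replicate block it was 6, all of them among the 21, with only the 10 arrays and no replicate block 6, and with no variance trend 11. A replicate block of 3 sets (number 1, 2 with 3, and 4 with 5), added after the correlations between numbers were seen, gave 20, all among the 21. Leaving out arrays or replicate numbers gave 10 to 21 calls, with 10 without replicate 3 and 13 without replicate 5. With DEX, where 737 were called, the count was 300 with no replicate block, 240 with only the 10 arrays and no replicate block, and 495 to 752 with arrays left out. The other settings gave counts within 1.5 times. In all 25 settings 5 of the 21 stayed called, namely AT1G70500, AT2G04850 and 3 unnamed probe sets, 260173_at and 253191_at among them. AT1G23460 lost its call in 2 settings, AT2G37750 in 6, AT5G61340 in 16 and AT1G04800 in 20, always in the same direction. AT1G24600, which was not called, changed sign to 0.17 without the VND7 array of replicate 1 and 0.18 without replicate 1 (range -0.64 to 0.18 with arrays left out). The median of the probe sets higher with DEX, read without DEX, lay between 0.15 and 0.27 over the settings run for it. Why these values moved was not tested. With a pseudocount of the 30th percentile, 260173_at stood at 6.15 and AT4G18450 at 0.20. Dim probe sets limit the rest: their intervals often exceed 2-fold.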
